A study of Mus musculus with 6 samples.

Results

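The neurotrophin signalling genes described here are *Bdnf*, *Ntf3*, *Ntrk2*, *Ntrk3*, *Ngfr*, *Sort1*, *Furin*, *Kidins220* and *Frs2*, chosen by name. All 9 were found by their gene identifiers among the 31053 genes of each library. Edits per read (EPR), the number of C-to-U edits on the reads of a gene divided by its reads, was measured by bulk RNA-seq in primary cortical neurons of the mouse, in 3 libraries for RPL10A-STAMP and 3 for RPL22-STAMP. In each construct, rAPOBEC1, a cytidine deaminase, is fused to RPL10A or RPL22, proteins of the large ribosomal subunit, so that mRNAs near the tagged ribosome acquire edits. The comparison asks whether EPR of these genes differed between the 2 fusions.

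All neurons came from WT C57BL/6J embryos at E18 and were plated at 600000 cells per well. Floxuridine, which limits dividing cells, was added at DIV 3. Cells were infected at DIV 6 with AAV carrying AAV-RPL10A-STAMP or AAV-RPL22-STAMP, received Dox at 1 µg per ml for 48 h and were collected at DIV 14. The sample titles carry NT, the study's abbreviation for no treatment in its BDNF experiment, and none names BDNF. Both groups therefore carried an AAV, an induced editor and Dox, and they differed in the fused protein and in its side. Per the methods, RPL10A was joined to the C terminus of the deaminase and RPL22 to its N terminus. Protein and orientation therefore cannot be told apart. The level of each editor was not examined here, and its part in the EPR differences was not tested. In its single-cell data, the paper found mean EPR correlated with editor expression and normalized for it. The human synapsin promoter drives the Dox-dependent activator, which limits the editor to neurons by design. Neurons without the editor and RPS2-STAMP neurons were not analysed here, so the values include any edits made away from ribosomes and any mismatches present without the editor. The replicates are called biological in the methods and technical elsewhere in the study, and the p-values below measure the spread between these libraries.

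Neurotrophins are secreted growth factors that are made as precursors, cleaved by convertases such as furin, and bound at the cell surface by Trk receptor tyrosine kinases. BDNF acts mainly through TrkB, the product of *Ntrk2*, and NT-3, the product of *Ntf3*, mainly through TrkC, the product of *Ntrk3*, and both support survival, dendrite growth and synaptic plasticity of cortical neurons. The p75 receptor, the product of *Ngfr*, binds all neurotrophins and, together with sortilin, their precursors, while Kidins220 and FRS2 couple activated Trk receptors to MAP kinase signalling.

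EPR is divided by reads and not by the number of editable cytidines. The sequences below are shown because they are the coding stretches of 30 bases richest in the context that rAPOBEC1 prefers, a C after A or T, in the members edited in all libraries. Capitals mark each C that follows A or T on the sense strand (AC or TC, which do not overlap each other, counting the base before the stretch for its first position). They were read from GRCm38, which is mm10, with GENCODE release M21, and they are sequence context and not measured edit sites, since no edit positions were used. The stretches lie at chr2:109723564-109723593 in *Bdnf*, chr13:58861257-58861286 in *Ntrk2*, chr7:78477900-78477929 (minus strand) in *Ntrk3*, chr3:108355531-108355560 in *Sort1*, chr12:25040500-25040529 in *Kidins220* and chr10:117074458-117074487 (minus strand) in *Frs2*, all within the coding sequence.
Bdnf: aggtCtgaCgaCgaCatCaCtggctgaCaC
Ntrk2: aaCtatCaCgtttCtCgagtCtCcaaCctC
Ntrk3: CttgtCaagtaaCcggctCaCcaCaCtCtC
Sort1: CaCtgaaaaCaCaCaCttCctatCtCctaC
Kidins220: cggttCccaaCatCtCatCtCaCgttCatC
Frs2: tCgtCtgaCatCtaCcagcaCctCagaCaC

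The *Sort1* stretch held 10 marked cytidines and the *Bdnf* stretch 8, and the other 4 held 9 each. Over the whole transcript with the longest coding sequence, a C after A or T made up 10.04% of the bases of *Bdnf*, 11.9% of *Ntrk2*, 13.1% of *Ntrk3*, 11.9% of *Sort1*, 11.0% of *Kidins220* and 11.4% of *Frs2*. The median of the genes tested was 11.2%. *Bdnf* was low in this context (11.1% of tested genes were lower) and in GC content, which was 39.8% (5.04% of tested genes were lower), against a median of 49.0%. *Ntrk3* was at the other end, with 97.9% of tested genes lower in this context. The *Ntrk3* transcript used has 2592 coding bases, 0 before and 182 after them, so its share is nearly that of coding sequence alone. The *Bdnf* transcript has 867 coding bases and 2858 after them.

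Between 9892 and 11195 genes were edited, that is, had an EPR above 0, in a library, and the median EPR of edited genes ran from 0.0118 to 0.0154 with RPL10A-STAMP and from 0.00907 to 0.0125 with RPL22-STAMP. The methods state a single number of reads for all samples, but the edits and reads behind a gene's ratio are unknown, so no counting interval is given, and a 0 may stand for no edits or for no reads. EPR does not give the amount of an RNA, and in these bulk samples fewer cells of a type and less RNA per cell cannot be told apart. All 6 neuronal markers listed (*Tubb3*, *Map2*, *Rbfox3*, *Syn1*, *Snap25* and *Nefl*) were edited in all 6 libraries, at 0.00308 to 0.0621. Of 6 astrocyte markers, 5 were edited in all libraries and none was at 0 throughout. Their EPR ran from 0 to 0.107, and the cells that these edits came from were not identified. Of 6 oligodendrocyte lineage markers, *Mog*, *Mag* and *Cspg4* were at 0 in all libraries, as were *Csf1r*, *P2ry12* and *Tmem119* of 5 microglial markers. Summed EPR of the 3 excitatory neuron markers was 0.0582 to 0.0747 with RPL10A-STAMP and 0.0445 to 0.0562 with RPL22-STAMP, and that of the 3 inhibitory neuron markers was 0.0175 to 0.0316 and 0.0471 to 0.0631. With each library scaled to a common median, the excitatory sums overlapped (0.0580 to 0.0610 against 0.0540 to 0.0627), and the inhibitory sums remained higher in every RPL22-STAMP library (0.0143 to 0.0331 against 0.0457 to 0.0704). The part of these markers in the results below was not tested.

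Of the 9 genes, 6 (*Bdnf*, *Ntrk2*, *Ntrk3*, *Sort1*, *Kidins220* and *Frs2*) were edited in all 6 libraries, *Furin* was edited in 4 and *Ntf3* and *Ngfr* were listed at 0 in all. None of the 6 testable genes differed between the constructs by limma at an adjusted p under 0.05, where 14.3% of the 8046 genes tested did (8.51% with RPL10A-STAMP higher, 5.77% with RPL22-STAMP higher). At an unadjusted p under 0.05, 3 of the 6 passed, all higher with RPL10A-STAMP, beside 30.9% of tested genes in either direction and 17.1% in that direction. *Sort1*, *Ntrk2* and *Kidins220* had the higher deposited EPR in every RPL10A-STAMP library, by 1.93 to 2.09 times in the mean. Deposited EPR was higher in every RPL10A-STAMP library for 28.2% of tested genes. *Bdnf* was among the least edited genes of every library. Its share of the EPR of each of the other 5 genes was higher in every RPL22-STAMP library than in any RPL10A-STAMP library, but these 5 ratios share the same *Bdnf* values, and 32.9% of all pairs of tested genes did not overlap in either direction.

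Among the ligands, *Bdnf* (chr2:109674700-109727007, plus strand, 11 annotated coding transcripts) encodes the main TrkB ligand. Its EPR was 0.00175, 0.00257 and 0.00306 in replicates 1, 2 and 3 of RPL10A-STAMP, against 0.00260, 0.00411 and 0.00346 in those of RPL22-STAMP. The groups overlapped, with a mean of 0.00246 ± 0.000657 (SD, n = 3) against 0.00339 ± 0.000757 (SD, n = 3; two-sided exact permutation p = 0.20, where 0.10 is the smallest that the 20 labelings allow). Within a library, only 1.17% to 8.62% of edited genes had a lower EPR than *Bdnf*, which stood at 0.149 to 0.330 times the median edited gene. After each library was scaled to a common median, the values were 0.00184, 0.00211 and 0.00237 with RPL10A-STAMP, against 0.00360, 0.00399 and 0.00386 with RPL22-STAMP. On this scale the groups no longer overlapped, all RPL22-STAMP libraries were higher, and the RPL10A-STAMP mean was 0.551 times the other (exact permutation p = 0.10).

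On the scale of the fit, log2(scaled EPR + 0.01), the *Bdnf* difference of RPL10A-STAMP over RPL22-STAMP was -0.19 (SE 0.087, 95% interval -0.40 to 0.01, limma adjusted p = 0.187). The added 0.01 exceeds every *Bdnf* value and so understates its fold change. With 0.001 added instead, the log2 fold change was -0.64, also short of the threshold. When the trend of EPR with transcript GC content was removed from each library, the change was -0.57 and passed (limma adjusted p = 0.00875). When strand is ignored, 14.4% of the exon bases of *Bdnf* also lie in exons of *Gm45346* on the opposite strand. The library kit marks strand, but the strand setting of the counting is not given in the sources used here, so reads of the antisense gene may be included.

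*Ntf3* (chr6:126101412-126166910, minus strand), which encodes the ligand of TrkC, was listed at 0 in all 6 libraries. No level or fold change can be given for it. *Ntf5*, which encodes NT-4, another TrkB ligand, was also at 0 throughout.

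**Figure D1:**
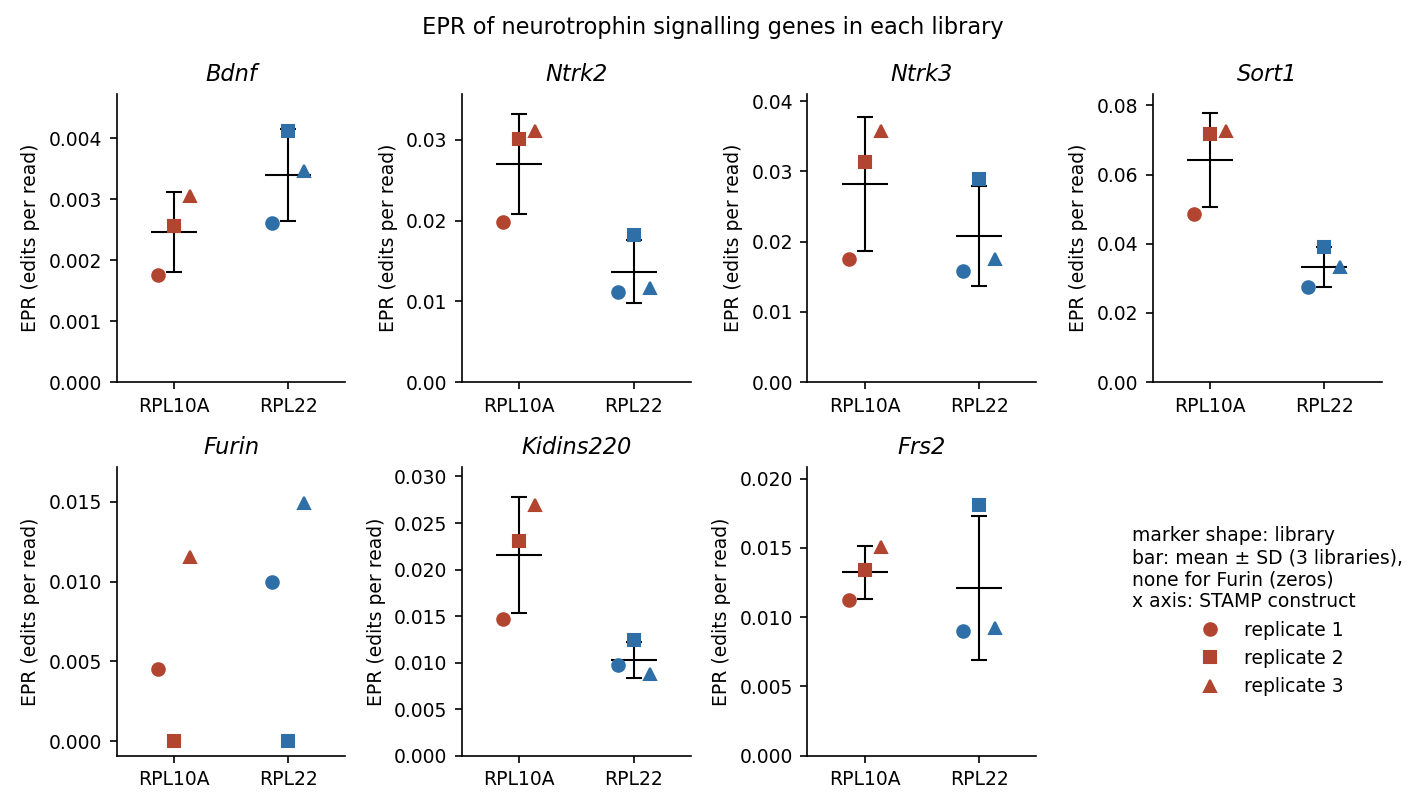
EPR as deposited (edits per read, vertical axis, from 0) in each RPL10A-STAMP (red) and RPL22-STAMP (blue) library, with 1 panel per gene and separate scales. Marker shapes give the replicate and bars the mean ± SD of 3 libraries, left out for *Furin* because of its zeros. The groups do not overlap for *Ntrk2*, *Sort1* and *Kidins220* and overlap for the other 4 genes.

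Among the receptors, *Ntrk2* (chr13:58806569-59133970, plus strand) encodes TrkB, made as a full-length kinase and as truncated forms that lack the kinase domain. Its 7 annotated coding transcripts have coding sequences of 1398 to 2463 bases, and a gene-level EPR does not separate them. The EPR was 0.0198, 0.0301 and 0.0311 in replicates 1 to 3 of RPL10A-STAMP, against 0.0112, 0.0182 and 0.0117 in those of RPL22-STAMP. Every RPL10A-STAMP library was higher, with a mean of 0.0270 ± 0.00624 (SD, n = 3) against 0.0137 ± 0.00389 (SD, n = 3; ratio 1.98; exact permutation p = 0.10). Deposited EPR separated the groups in this way, in either direction, for 34.4% of tested genes, with RPL10A-STAMP higher for 28.2% and RPL22-STAMP higher for 6.21%.

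Scaled to a common median, *Ntrk2* was at 0.0207, 0.0247 and 0.0241 with RPL10A-STAMP, against 0.0155, 0.0176 and 0.0130 with RPL22-STAMP. The groups stayed apart at a ratio of 1.51. In the fit the log2 fold change was 0.39 (SE 0.14, 95% interval 0.07 to 0.71, limma adjusted p = 0.103). With 0.001 added instead of 0.01 it was 0.57. With the trend of EPR with transcript length removed from each library, it was 0.23 (95% interval -0.08 to 0.54, limma adjusted p = 0.287). The *Ntrk2* transcript used was long, with 94.9% of tested genes shorter. The fit adds 0.01 to every gene, so the fitted log2 fold changes below are understated too, more so at low EPR. Astrocytes also express *Ntrk2*, mainly as the truncated receptor. Summed EPR of the 6 astrocyte markers was 0.196 to 0.278 with RPL10A-STAMP and 0.130 to 0.224 with RPL22-STAMP, which overlap, and the part of astrocyte RNA in the *Ntrk2* values was not tested.

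*Ntrk3* (chr7:78175959-78738012, minus strand, 6 annotated coding transcripts) encodes TrkC. It was at 0.0175, 0.0313 and 0.0357 with RPL10A-STAMP, against 0.0159, 0.0290 and 0.0176 with RPL22-STAMP, in replicate order. The groups overlapped (mean 0.0282 ± 0.00951 against 0.0208 ± 0.00713, SD, n = 3 each; exact permutation p = 0.30). Scaled values also overlapped, at 0.0183 to 0.0278 and 0.0196 to 0.0282. The log2 fold change was 0.03 with a 95% interval of -0.38 to 0.43 (SE 0.17, limma adjusted p = 0.933), and its sign turned to -0.03 with scaling to the 75th percentile. The interval includes the *Ntrk2* estimate, so the fit does not show *Ntrk3* to be equal between constructs.

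*Ngfr* (chr11:95568818-95587735, minus strand, 1 coding transcript), encoding p75, was listed at 0 in all 6 libraries. No level or difference between constructs can be given for it.

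*Sort1* (chr3:108284082-108361511, plus strand) encodes sortilin, a sorting receptor that binds neurotrophin precursors and directs BDNF to regulated secretion. Its EPR was the highest of the 9 genes, at 0.0485, 0.0717 and 0.0725 with RPL10A-STAMP, against 0.0275, 0.0391 and 0.0334 with RPL22-STAMP. The groups did not overlap (mean 0.0643 ± 0.0137 against 0.0333 ± 0.00580, SD, n = 3 each; ratio 1.93; exact permutation p = 0.10). It ranked above 89.1% to 94.5% of the genes edited in the same library and stood at 2.94 to 4.84 times the median edited gene.

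The scaled values of *Sort1* were 0.0508, 0.0589 and 0.0564 with RPL10A-STAMP, against 0.0380, 0.0380 and 0.0373 with RPL22-STAMP. The RPL22-STAMP libraries were close to each other (0.0378 ± 0.000431, SD, n = 3), all RPL10A-STAMP libraries lay above them, and the ratio of the means was 1.47. The log2 fold change was 0.45 (SE 0.13, 95% interval 0.15 to 0.75, limma adjusted p = 0.0596). It crossed the threshold in 3 of 18 alternative settings, at limma adjusted p = 0.0480 with 0.1 added, 0.0471 without the trend of the variance and 0.0499 with the GC trend removed. In the other 15 it did not, with limma adjusted p up to 0.178, without RPL10A-STAMP replicate 2. With the trend of EPR with transcript length removed, the change was 0.33 (limma adjusted p = 0.135). On the opposite strand, *Gm12523* covers 4.47% of its exon bases.

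**Figure D2:**
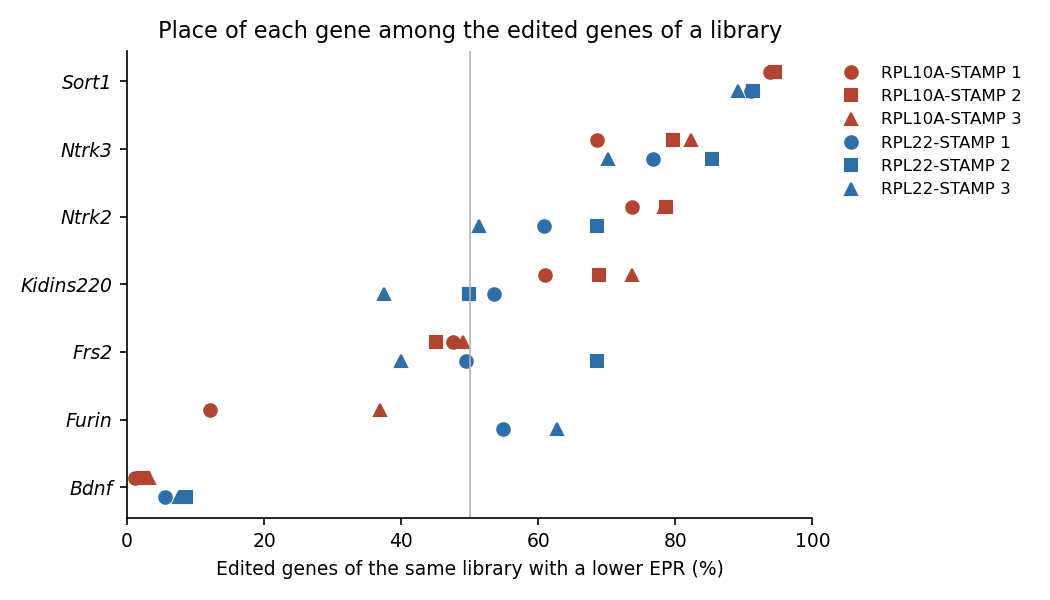
Percentage of the edited genes of the same library with a lower EPR (horizontal axis) for the 7 genes edited in any library, with RPL10A-STAMP libraries in red and RPL22-STAMP libraries in blue and a line at 50%. *Sort1* lies above 89% and *Bdnf* below 9% in all 6 libraries. *Furin* is shown for the 4 libraries in which it was edited.

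*Furin* (chr7:80388585-80405436, minus strand) encodes a convertase of the secretory pathway that cleaves neurotrophin precursors. It was at 0.00452, 0 and 0.0116 in replicates 1, 2 and 3 of RPL10A-STAMP and at 0.00997, 0 and 0.0149 in those of RPL22-STAMP. Replicate 2 of each construct was listed at 0, the groups overlapped (exact permutation p = 0.80), and the gene was not in the fit.

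Among the Trk partners, *Kidins220* (chr12:24974925-25063152, plus strand) encodes a scaffold that binds Trk receptors and prolongs MAP kinase signalling. Its EPR was 0.0147, 0.0230 and 0.0270 with RPL10A-STAMP, against 0.00971, 0.0125 and 0.00874 with RPL22-STAMP. Every RPL10A-STAMP library was higher (mean 0.0216 ± 0.00627 against 0.0103 ± 0.00193, SD, n = 3 each; ratio 2.09; exact permutation p = 0.10). Scaled values were 0.0154, 0.0189 and 0.0210 against 0.0134, 0.0121 and 0.00975. The groups stayed apart at a ratio of 1.57, with a log2 fold change of 0.38 (SE 0.14, 95% interval 0.05 to 0.72, limma adjusted p = 0.119). With the trend of EPR with transcript length removed, it was 0.25 (95% interval -0.08 to 0.59, limma adjusted p = 0.279). The *Kidins220* transcript used was long, with 90.9% of tested genes shorter.

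*Frs2* (chr10:117069427-117148534, minus strand, 1 coding transcript) encodes a docking adaptor that competes with SHC for activated Trk receptors. It was at 0.0112, 0.0134 and 0.0151 with RPL10A-STAMP, against 0.00900, 0.0181 and 0.00921 with RPL22-STAMP. RPL22-STAMP replicate 2 was the highest of all 6 libraries and the other RPL22-STAMP libraries were the lowest, so the groups overlapped (mean 0.0132 ± 0.00194 against 0.0121 ± 0.00521, SD, n = 3 each; exact permutation p = 0.80). The log2 fold change of -0.11 had a 95% interval of -0.47 to 0.24 (SE 0.15, limma adjusted p = 0.656), and its sign turned to 0.09 without scaling and to 0.01 without that library.

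Of the 6 testable genes, deposited EPR separated the constructs for 3, and scaled EPR for 4, of which *Bdnf* alone was higher with RPL22-STAMP. Deposited EPR separated the constructs for 34.4% of tested genes, with RPL10A-STAMP higher for 28.2%. Scaled EPR separated them for 37.1% of tested genes, with RPL10A-STAMP higher for 20% and RPL22-STAMP higher for 17.1%. Scaling matters because without it the median log2 fold change of all tested genes was 0.18 instead of -0.01.

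**Figure D3:**
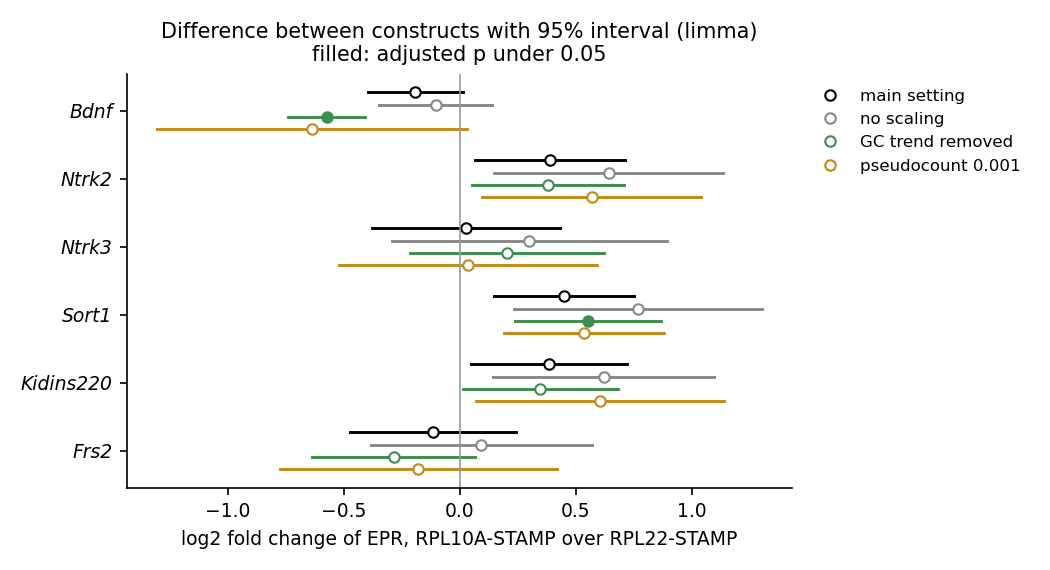
Difference between RPL10A-STAMP and RPL22-STAMP (log2 fold change, positive where RPL10A-STAMP was higher, horizontal axis) with its 95% interval from limma for the 6 genes edited in all libraries, in 4 settings shown by colour. Points are filled where the adjusted p was under 0.05. In the main setting (black) no point is filled, and *Bdnf* and *Sort1* are filled with the GC trend removed (green).

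The order of the levels was alike for both constructs at its ends. With RPL10A-STAMP the mean EPR fell from *Sort1* through *Ntrk3*, *Ntrk2*, *Kidins220* and *Frs2* to *Bdnf*, and with RPL22-STAMP *Frs2* preceded *Kidins220*. *Sort1* exceeded *Ntrk3* and the gene next to *Bdnf* exceeded *Bdnf* in each of the 3 libraries of both groups. *Ntrk3* and *Ntrk2* did not keep 1 order with RPL10A-STAMP, where *Ntrk3* was higher in 2 of 3 libraries, and neither did *Frs2* and *Kidins220* with RPL22-STAMP, where *Frs2* was higher in 2 of 3. These levels are per read and not per editable C.

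Ratios between 2 genes of the same library need no scaling between libraries. *Bdnf* over *Ntrk2*, ligand over receptor, was 0.0885, 0.0852 and 0.0984 with RPL10A-STAMP, against 0.233, 0.227 and 0.297 with RPL22-STAMP. The groups were far apart, at a mean of 0.0907 ± 0.00687 against 0.252 ± 0.0390 (SD, n = 3 each; exact permutation p = 0.10, the smallest possible). *Bdnf* over *Sort1*, the ligand over its sorting receptor, was 0.0362, 0.0358 and 0.0421 against 0.0946, 0.105 and 0.104. All RPL22-STAMP libraries were higher in the ratio of *Bdnf* to each of the 5 other genes.

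The ratio of the 2 receptor genes separated the constructs as well, as did 32.9% of all pairs of tested genes in either direction. *Ntrk2* over *Ntrk3* was 1.13, 0.963 and 0.870 with RPL10A-STAMP, against 0.705, 0.626 and 0.664 with RPL22-STAMP. Every RPL10A-STAMP library was higher (exact permutation p = 0.10), so the TrkB gene was edited about as much as the TrkC gene with RPL10A-STAMP (mean ratio 0.988 ± 0.133, SD, n = 3) and less with RPL22-STAMP (0.665 ± 0.0393, SD, n = 3).

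Ratios among *Ntrk2*, *Sort1* and *Kidins220* overlapped between constructs. *Ntrk2* over *Sort1* was 0.409, 0.420 and 0.428 against 0.407, 0.464 and 0.349 (exact permutation p = 0.70). In all, 15 pairs were compared and 11 did not overlap, beside 32.9% of all pairs of tested genes. The pairs share genes, 5 of the 11 contain *Bdnf*, and with 3 libraries against 3 no pair can reach a p below 0.10.

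**Figure D4:**
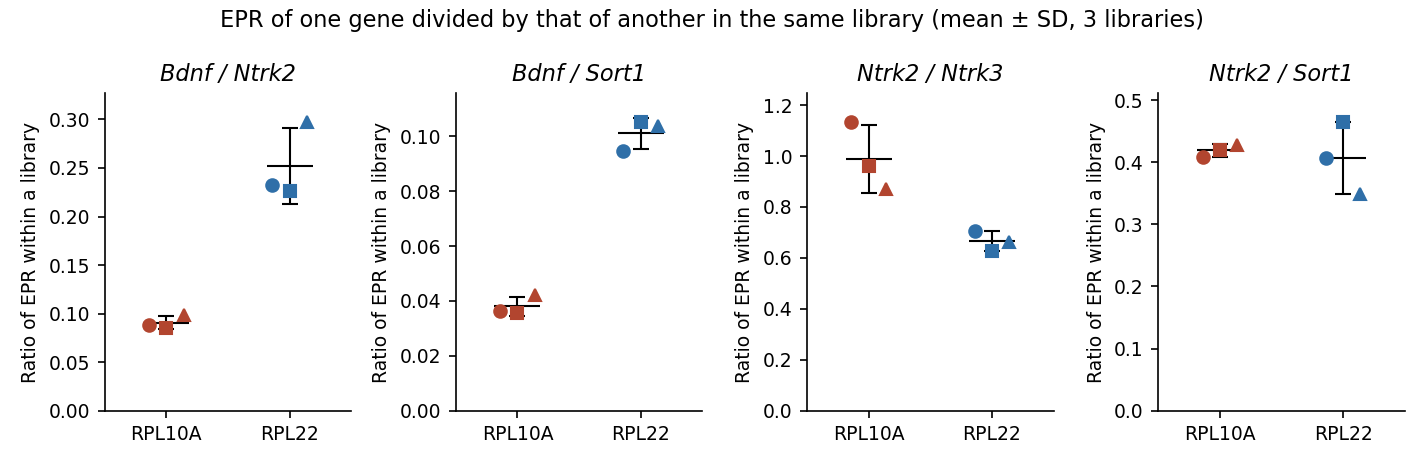
Ratio of the EPR of 2 genes within a library (vertical axis, from 0, no unit) for RPL10A-STAMP (red) and RPL22-STAMP (blue), with marker shapes for replicates 1 (circle), 2 (square) and 3 (triangle) and bars for the mean ± SD of 3 libraries. *Bdnf* over *Ntrk2* and over *Sort1* is higher in every RPL22-STAMP library, *Ntrk2* over *Ntrk3* in every RPL10A-STAMP library, and *Ntrk2* over *Sort1* overlaps.

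The genes with the EPR pattern closest to *Bdnf* were *Psmc2*, *Stmn4* and *Psmc5*, with a root mean square difference of log2(scaled EPR + 0.01) over the 6 libraries of 0.0706, 0.0769 and 0.0855. *Psmc2* and *Psmc5* encode ATPases of the proteasome and *Stmn4* a stathmin, which binds tubulin. Closest to *Ntrk2* were *Tmem185a* (0.0584), *Phf20l1* (0.0609) and *Ankrd13c* (0.0912), and closest to *Ntrk3* were *Srpk1* (0.1004), *Sdcbp* (0.131) and *Nrsn1* (0.133). Level and pattern both enter this measure.

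The wider pathway was taken from a list of 82 further genes, of which 60 were edited in all 6 libraries and tested, 16 were edited in some and 6 were at 0 in all. By limma at an adjusted p under 0.05, 6 were higher with RPL10A-STAMP and 2 with RPL22-STAMP. These 8 are 13.3% of the 60, near the 14.3% of all tested genes, and the median log2 fold change was -0.06 beside -0.01 over all. The calls lay in 5 of the role groups, with 4 of 14 tested RAS, RAF and MAP kinase genes, 1 of 11 Trk adaptor genes, 1 of 10 PI3 kinase and AKT genes, 1 of 5 feedback genes and 1 of 4 transcription factor genes.

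*Mapk3*, encoding the MAP kinase ERK1, was higher with RPL22-STAMP. Its EPR was 0.0108, 0.0127 and 0.0126 with RPL10A-STAMP, against 0.0294, 0.0373 and 0.0347 with RPL22-STAMP, and the log2 fold change was -1.24 (SE 0.12, limma adjusted p = 0.00444). The libraries were widely separated, and the call held in all 18 alternative settings. *Ptprs*, a receptor phosphatase that can act on Trk receptors, was the other gene higher with RPL22-STAMP (-0.73, limma adjusted p = 0.0479), and its deposited values overlapped.

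*Sos1*, an exchange factor that activates RAS after Trk stimulation, was at 0.0353, 0.0553 and 0.0667 with RPL10A-STAMP, against 0.0111, 0.00841 and 0.00971 with RPL22-STAMP, with a log2 fold change of 1.36 (SE 0.18, limma adjusted p = 0.00540). *Rps6ka3*, encoding the ERK target kinase RSK2, was at 0.0374, 0.0575 and 0.0596 against 0.0114, 0.0177 and 0.0129, with a log2 fold change of 1.07 (SE 0.13, limma adjusted p = 0.00490). Each was higher in all RPL10A-STAMP libraries and was called in 17 of 18 alternatives. *Pik3cb*, a catalytic subunit of PI3 kinase, had a log2 fold change of 1.36 (limma adjusted p = 0.0230). The small GTPase genes *Rap1a* and *Rap1b*, which link FRS2 to sustained MAP kinase activity, were at 0.68 and 0.52 (limma adjusted p = 0.0254 and 0.0374), and *Mef2c*, a transcription factor of neurons, at 0.51 (limma adjusted p = 0.0400).

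The calls of *Mapk3*, *Sos1* and *Rps6ka3* held when any 1 library was left out. Those of *Mef2c* and *Ptprs* were lost whichever library was left out (limma adjusted p up to 0.113 and 0.134). That of *Pik3cb* was lost without RPL10A-STAMP replicate 2 or 3 or RPL22-STAMP replicate 1 or 3 (up to 0.0757). That of *Rap1a* was lost without replicate 2 or 3 of either construct (up to 0.0904), and that of *Rap1b* without any library but RPL22-STAMP replicate 1 (up to 0.105). With the GC trend removed, *Rap1a*, *Rap1b*, *Mef2c* and *Ptprs* were not called (limma adjusted p = 0.279, 0.495, 0.470 and 0.284), and without scaling *Ptprs* was not (0.328). Copies of these genes elsewhere in the genome that could share reads were not searched.

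**Figure D5:**
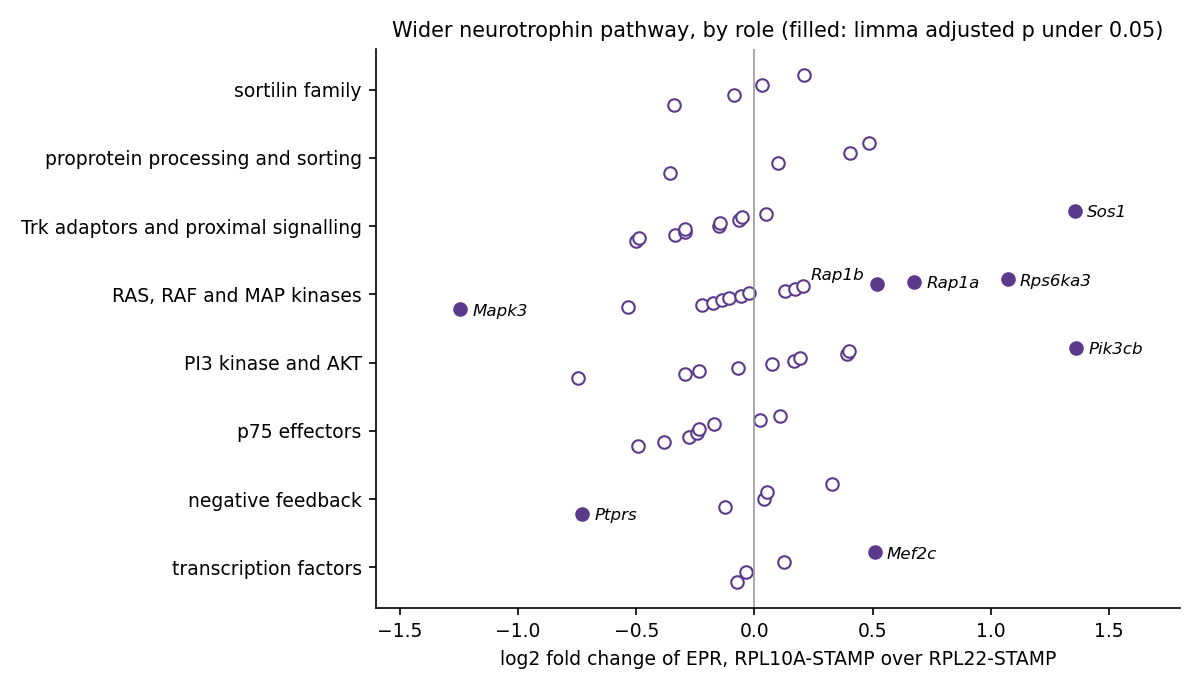
Difference between RPL10A-STAMP and RPL22-STAMP (log2 fold change, positive where RPL10A-STAMP was higher, horizontal axis) for the 60 tested genes of the wider pathway list, 1 point per gene, in rows by role. The 8 filled and named points had a limma adjusted p under 0.05. *Mapk3* and *Ptprs* lie to the left of 0 and the other 6 to the right.

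None of the 4 sortilin family genes, of the 4 tested processing genes or of the 8 tested p75 effector genes passed. At 14.3% over all tested genes, groups of this size say little by such counts. *Sorcs1*, the most edited relative of *Sort1*, was at 0.0275 to 0.0511 with RPL10A-STAMP and 0.0250 to 0.0442 with RPL22-STAMP (log2 fold change -0.09, limma adjusted p = 0.839). *Sorl1*, a sorting receptor that binds TrkB, had a log2 fold change of 0.21 (limma adjusted p = 0.321) and *Sorcs2*, a partner of p75 in precursor signalling, one of -0.34 (limma adjusted p = 0.258). Among the processing genes, *Cpe*, a carboxypeptidase that also sorts BDNF, was at -0.36 (limma adjusted p = 0.219), and the convertase genes *Pcsk2* and *Pcsk7* at 0.40 and 0.10 (limma adjusted p = 0.0790 and 0.848).

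Of the downstream genes that did not pass, those named by their mean EPR had differences of both signs. The log2 fold change was 0.17 for *Gsk3b*, a kinase that AKT inhibits (limma adjusted p = 0.417), -0.54 for *Map2k1*, encoding the ERK kinase MEK1 (0.155), and -0.11 for the RAS gene *Nras* (0.655). It was 0.11 for *Rhoa*, a GTPase that p75 regulates (limma adjusted p = 0.574), and 0.33 for *Spred1*, an inhibitor of RAS and MAP kinase signalling (0.189). Among the activity-dependent transcription factor genes, *Egr1* was at -0.04 and *Creb1* at 0.13 (limma adjusted p = 0.838 and 0.679). Their EPR ran from 0.00346 to 0.00620 and from 0.00933 to 0.0221 over the 6 libraries. The 0.01 added in the fit exceeds every *Egr1* value.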

How the data were processed

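Trimmed reads were aligned to mm10 with STAR, C-to-U edits were called with SAILOR, reads per gene were counted with featureCounts, and the authors deposited the ratio of edits to reads, EPR, for 31053 genes per library, without scaling between libraries. Their gene annotation is not given in the sources used here. Identifiers were matched to GENCODE release M21 (31011 found, 42 not found).

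The 8046 genes with an EPR above 0 in every library were tested. Their median was set equal in all libraries, to the geometric mean of the 6 medians. log2(scaled EPR + 0.01) was then compared by limma 3.58.1 (R 4.3.3) with a variance trend and Benjamini-Hochberg adjustment at 0.05. Genes at 0 in any library were left out of the fit. For single values, the exact permutation test was two-sided (scipy 1.17.1, Python 3.11.15). Trends with GC content, and those with log2 transcript length, were removed in separate settings with natural splines of 4 degrees of freedom. The replicate number was tried as a block. Deviations of same-numbered libraries correlated at 0.0437, 0.0464 and -0.00546, so these scaled values showed no pairing by number. They cannot exclude that same-numbered libraries shared a culture or batch.

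Named genes were the 9 members, all genes of the wider list that passed, up to 3 per role with the highest mean EPR, and the 3 nearest genes of *Bdnf*, *Ntrk2* and *Ntrk3*. Some genes that this rule names are not reported here. The members and lists were chosen with earlier results of these data known.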

Additional observations from a re-analysis of the deposited data

How the results depend on the processing

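Of the 6 testable members, 0 passed in the main setting and in 14 of 18 alternatives. *Sort1* alone passed with 0.1 added (1 gene) and without the trend of the variance (1 gene), *Bdnf* and *Sort1* passed with the GC trend removed (2 genes), and *Bdnf* alone passed with the GC trend removed and the replicate number as a block (1 gene, limma adjusted p = 0.0451). With the replicate block alone, 0 members passed. Leaving out each library in turn gave 0 each time.

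Of the wider list, 8 genes passed in the main setting. The count was 5 among genes edited in at least 3 libraries and 5 among genes edited in at least 1, in each case 3 of the 8 with *Ripk2* and *Sh2b2*. It was 4 with the replicate block, 4 with the GC trend removed, 2 with the GC trend removed and the block, and 3 to 6 with 1 library left out. It was 3 without RPL10A-STAMP replicate 2 or 3 or without RPL22-STAMP replicate 3, and 4 without RPL22-STAMP replicate 2. The labels do not state whether same-numbered libraries are paired. Over all genes, 1149 passed, 603 with the block, 662 with the GC trend removed, 225 with both, 754 and 569 with the wider filters and 369 to 873 with 1 library left out.

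The log2 fold change of *Ntrk3* was 0.03, -0.0309 with scaling to the 75th percentile and -0.0545 to 0.152 with 1 library left out. That of *Frs2* was -0.11, 0.0927 without scaling and -0.214 to 0.0103 with 1 library left out. The difference in mean deposited EPR of *Frs2* was 0.00112, -0.00195 after scaling and -0.000435 to 0.00413 with 1 library left out, and that of *Furin* was -0.00294 and -0.00708 to 0.000378. The cause of these changes was not tested. *Bdnf*, *Ntrk2*, *Sort1* and *Kidins220* kept their sign in all alternatives. With 3 libraries per construct and unknown reads per gene, the intervals of single genes are wide.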

Other observations

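*Ripk2*, a kinase that binds p75, was edited at 0.0169, 0.0397 and 0.0706 in the RPL10A-STAMP libraries and was listed at 0 in all 3 RPL22-STAMP libraries, and it was therefore not in the fit. *Sh2b2*, a Trk adaptor gene, was the reverse, listed at 0 in the 3 RPL10A-STAMP libraries and at 0.00926, 0.0200 and 0.0323 in the RPL22-STAMP libraries. Both passed in the 2 settings with wider filters, where a gene at 0 throughout 1 construct is tested. Such a gene enters only through the construct in which it was edited, so these 2 calls do not count as support for a difference. A 0 may also stand for no reads. *Shc1*, a Trk adaptor gene, was edited in 3 libraries, at 0.0769 in RPL10A-STAMP replicate 3 and at 0.0216 and 0.0159 in RPL22-STAMP replicates 2 and 3.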
